A study of Mus musculus with 9 samples.

Results

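The transcripts described here encode enzymes of the mevalonate pathway, from the joining of acetyl-CoA units to the formation of squalene. They were chosen by name, with earlier results of these data known. Of the 9 genes listed, 8 were found among the 25175 gene symbols in each library: Acat2, Hmgcs1, Mvk, Pmvk, Idi1, Fdps, Ggps1 and Fdft1. Mvd, which encodes mevalonate diphosphate decarboxylase, was not analysed here, and the 8 genes do not cover every step. All 8 passed the filter on low values (at least 1 FPKM in at least 3 libraries), as did 11337 genes in all. FPKM scales fragments to transcript length and to the mapped fragments of a library, so that levels can be compared between genes.

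The libraries were made from HL-1 cells, an immortalised mouse atrial cardiomyocyte line grown in Claycomb medium, after 24 h with 5 µM ivermectin, 10 µM importazole or 0.1% DMSO as vehicle, with 3 libraries in each group. Ivermectin, best known as a treatment for parasites, also inhibits nuclear import by importin α/β. Importazole, a small molecule unrelated in structure to ivermectin and given at another dose, targets importin-β. HL-1 is 1 cell line, the DMSO content of the compound groups is not given in the labels, and nothing states that libraries of a group came from separate cultures, so the p-values measure only the spread between these libraries, which may be technical.

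In the mevalonate pathway, acetyl-CoA is built up to HMG-CoA and mevalonate, which is phosphorylated and decarboxylated to the isoprene unit isopentenyl diphosphate. Isoprene units are joined to farnesyl diphosphate, the branch point from which squalene leads to cholesterol, while geranylgeranyl diphosphate supplies the lipid anchors of small GTPases and other branches give ubiquinone and dolichol. Many of the genes are activated by SREBP-2, a membrane-bound transcription factor that is retained in the endoplasmic reticulum when sterols are plentiful, and whose released fragment is carried into the nucleus by importin-β.

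RefSeq start sites with flanking sequence were at hand for 6 of the 8 members (Acat2, Hmgcs1, Mvk, Pmvk, Idi1 and Ggps1). Shown are the stretches directly before the start sites of Hmgcs1 and Mvk, whose transcripts differed between the compound groups, and of Ggps1, whose transcripts did not pass any test, on build GRCm38.p6 and read 5′ to 3′ on the gene's strand. Capitals mark matches on either strand to the NF-Y box CCAAT, the GC box GGGCGG and the sterol regulatory element in the form TCACNCCAC. SREBP binds such elements. Other forms of the element were not searched, so a window without a match may still hold a site for SREBP.
Hmgcs1 (chr13:119690101-119690350, plus strand): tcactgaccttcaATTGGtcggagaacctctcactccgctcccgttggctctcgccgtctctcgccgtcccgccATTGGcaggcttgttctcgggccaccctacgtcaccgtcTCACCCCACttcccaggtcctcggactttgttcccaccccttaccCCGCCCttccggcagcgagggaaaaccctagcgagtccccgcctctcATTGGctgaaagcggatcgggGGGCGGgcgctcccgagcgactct
Mvk (chr5:114444069-114444268, plus strand): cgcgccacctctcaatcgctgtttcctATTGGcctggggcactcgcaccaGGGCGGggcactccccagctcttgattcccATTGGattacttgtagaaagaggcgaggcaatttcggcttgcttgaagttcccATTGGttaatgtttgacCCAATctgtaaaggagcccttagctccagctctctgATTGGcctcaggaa
Ggps1 (chr13:14063489-14063738, minus strand): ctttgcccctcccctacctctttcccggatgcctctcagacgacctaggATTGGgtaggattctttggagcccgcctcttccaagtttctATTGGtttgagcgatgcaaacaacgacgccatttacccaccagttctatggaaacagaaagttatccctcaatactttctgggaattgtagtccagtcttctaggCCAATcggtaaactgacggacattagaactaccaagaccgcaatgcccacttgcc

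In the 250 bases before the start site, the NF-Y box was matched in 5 of the 6 members, taking the first window listed for a gene, with 5 matches for Mvk, 3 for Hmgcs1 and for Ggps1, 2 for Idi1 and 1 for Pmvk. Of all 32851 RefSeq windows of that length, 33.85% held it. The GC box was matched in Acat2, Hmgcs1, Mvk and Idi1, which is 4 of 6, against 32.7% of all windows. The RefSeq start site of Idi1 lies inside the gene as placed by GENCODE, and all matches of Idi1 fall within that gene. A single match to the sterol regulatory element lay in the Hmgcs1 window, 137 to 129 bases before the start site, and 1.05% of all windows held one. The E-box CACGTG was matched in 0 of the 6, against 6.02% of all windows. None of the matches overlapped, and 1 of the 2 GC boxes of Mvk lies further out than the 200 bases shown. Ggps1 thus carried as many NF-Y matches as Hmgcs1 while holding no GC box and no match to the sterol element. Pmvk, whose transcripts rose with importazole, likewise held no GC box and no match to the sterol element. Acat2, Mvk and Idi1, whose transcripts also rose with importazole, held no match to the sterol element. All of these are matches of letters in a window, and binding was not measured. Whether the matches bear on transcript levels was not tested.

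**Figure D1:**
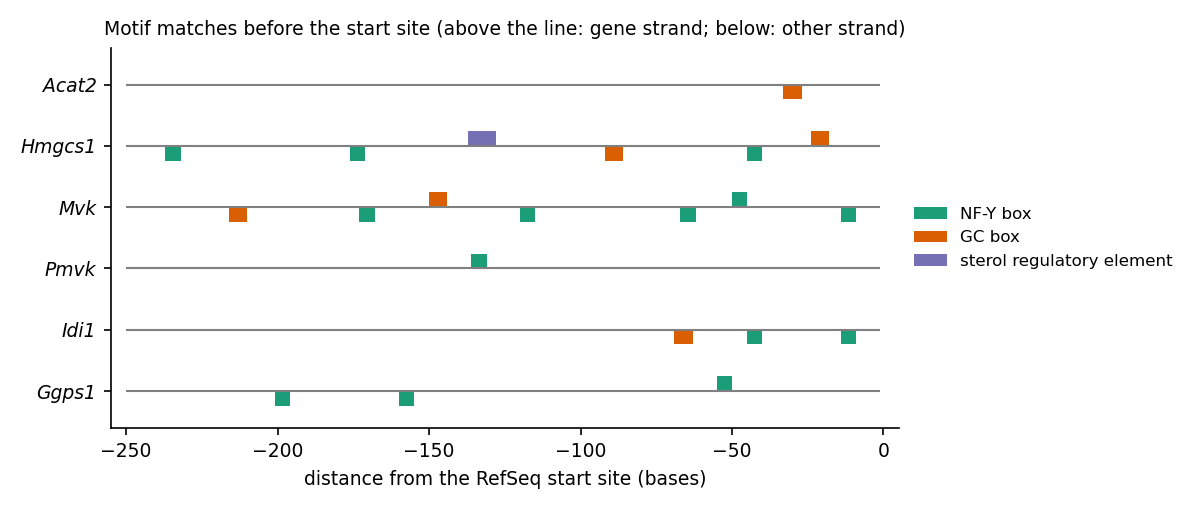
Matches to 3 motifs in the 250 bases before the RefSeq start site of the 6 members with a window, by distance from the start site in bases, with boxes above a line for the gene's strand and below it for the other strand. Mvk holds 5 NF-Y boxes, and Hmgcs1 holds the single match to the sterol regulatory element.

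Depth could not be recovered from FPKM, so no counting interval is given. Summed FPKM was 365259 to 416748 per library, and Yam1, an abundant transcript, was listed at 0 in ivermectin 3 and vehicle 2 and made up 5.86% to 10.43% of the sum in the other 7. FPKM is a share of a library's fragments, and fewer cells and less RNA per cell cannot be told apart. The 8 markers of HL-1 identity summed to 4557 to 4957 FPKM with ivermectin, 5201 to 5590 FPKM with importazole and 5580 to 6357 FPKM in vehicle. Among markers of other cells, the 5 fibroblast genes summed to at most 2.05 FPKM, the 3 macrophage genes measured to at most 2.29 FPKM and the 4 endothelial genes to at most 10.3 FPKM, mostly Kdr. The 4 smooth muscle genes summed to 1158 to 1404 FPKM, nearly all from Acta2 and Tagln, with Myh11 at most 0.119 FPKM. By the limma test described below, 4 of the 8 identity genes were called lower in ivermectin against vehicle, beside 2.52% of all genes tested. In importazole against vehicle 2 were called lower and 1 higher, beside 0.565% and 1.69% of all genes tested. Whether this shift has a part in the results below was not tested.

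Taken as a sum over the 8 members, FPKM was 139.9, 155 and 155 in ivermectin libraries 1 to 3, 434, 434 and 427 in importazole libraries and 212, 214 and 211 in vehicle libraries. The pathway's transcripts thus stood lowest with ivermectin and highest with importazole, and the sums did not overlap between groups. Differences were tested on log2(FPKM + 1) with limma across all 11337 genes and all 9 libraries, and called at a Benjamini-Hochberg adjusted p under 0.05. This scale understates the change of low genes.

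In ivermectin against vehicle, 5 members fell (Acat2, Hmgcs1, Idi1, Fdps and Fdft1), 0 rose and Mvk, Pmvk and Ggps1 did not pass. Of all genes tested, 4.31% were called, 2.52% lower (286 genes) and 1.79% higher (203 genes). The median log2 difference of the 8 members was -0.43, beside 0.01 over all genes tested. In importazole against vehicle, 7 members rose and Ggps1 did not pass, beside 2.26% of all genes called, 1.69% higher (192 genes) and 0.565% lower (64 genes, or 159 higher and 117 lower after quantile normalization). The members' median log2 difference was 0.83, beside 0.04 over all genes. Set directly against importazole, ivermectin gave lower values for the same 7 members, with 3.42% of all genes called, 2.71% lower (307 genes) and 0.714% higher (81 genes, or 274 lower and 191 higher after quantile normalization). The median log2 difference of all 8 members was -1.29, beside -0.03 over all genes. Both comparisons with vehicle use the same 3 vehicle libraries.

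**Figure D2:**
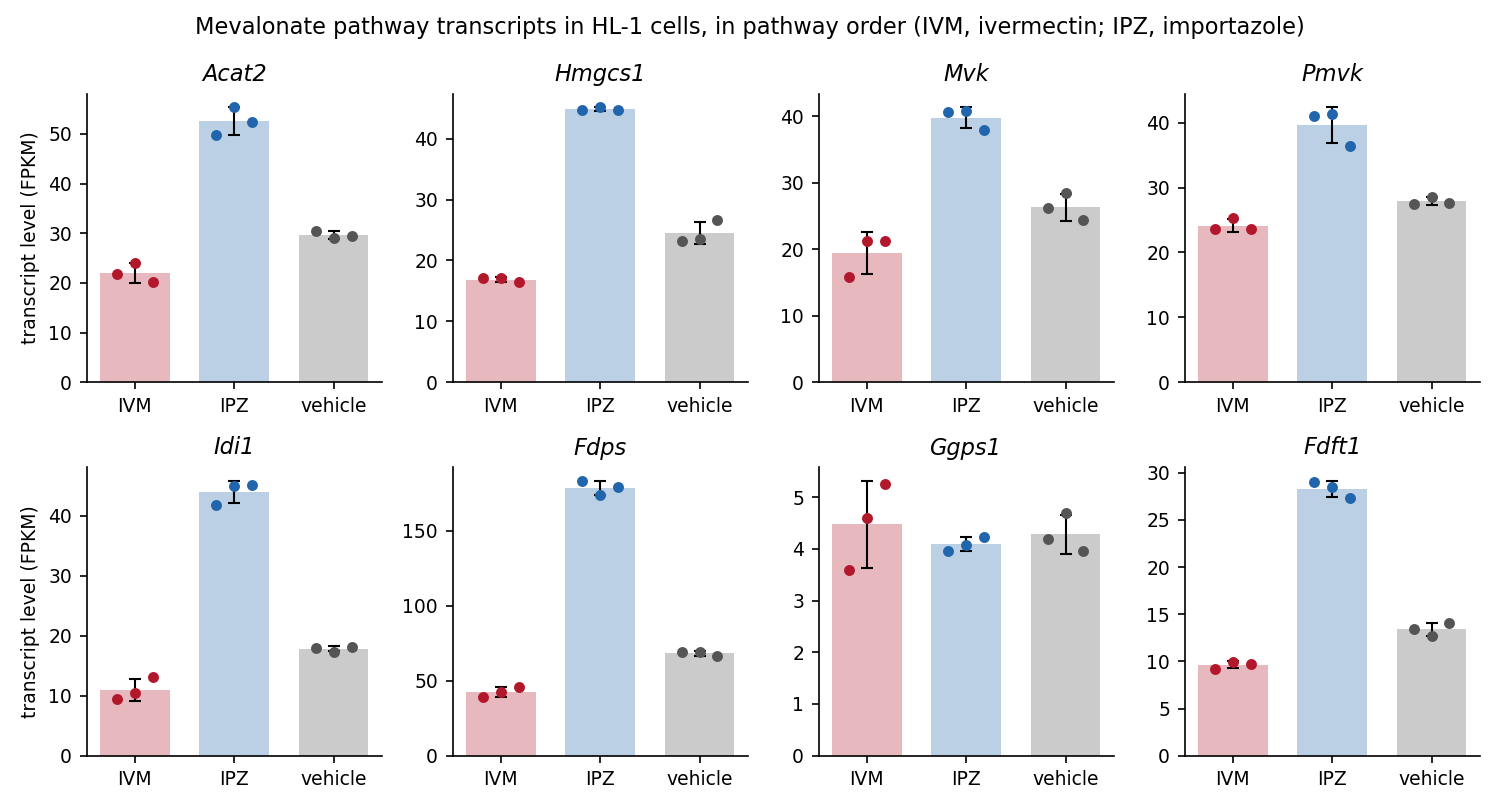
Transcript level in FPKM of the 8 members in pathway order, by library (points), with group means (bars) and SD (lines, n = 3) for ivermectin (IVM), importazole (IPZ) and vehicle. In 7 panels the 3 importazole points lie above and the 3 ivermectin points below the vehicle points. For Ggps1 the 3 groups overlap. The share of all genes tested whose groups are as separate was not counted, so the 7 cannot be weighed against it.

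At the entry to the pathway, Acat2 encodes the cytosolic thiolase that joins acetyl-CoA units to acetoacetyl-CoA (ENSMUSG00000023832.14, GRCm38 chromosome 17, 12942890 to 12960747, minus strand). Its level was 21.8, 24.1 and 20.1 FPKM with ivermectin, 49.8, 55.4 and 52.5 FPKM with importazole and 30.5, 29.0 and 29.5 FPKM in vehicle. All ivermectin libraries lay below, and all importazole libraries above, those in vehicle. Acat2 fell by 0.42 on the log2 scale with ivermectin (95% interval -0.58 to -0.25, limma adjusted p = 0.0111), and the call ended without both libraries that list Yam1 at 0 (limma adjusted p = 0.0727). Importazole raised it by 0.80 against vehicle (0.64 to 0.97, limma adjusted p = 2.25e-04), and ivermectin against importazole gave -1.22 (-1.39 to -1.06, limma adjusted p = 3.88e-06). Of the 50-base words of its longest coding transcript, 45.9% also occur in Acat3, the neighbouring thiolase gene, so that fragments may have been divided between them and both levels are uncertain. Acat3 itself was at 5.98, 7.99 and 7.42 FPKM with ivermectin, 15.5, 18.3 and 17.6 FPKM with importazole and 11.6, 10.0 and 9.69 FPKM in vehicle. It fell with ivermectin (log2 difference -0.50, limma adjusted p = 0.0296) and rose with importazole (0.67, limma adjusted p = 0.00928). Tcp1 on the opposite strand shares 23.5% of the exon bases of Acat3, which adds to the uncertainty of its level.

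Hmgcs1, the cytosolic synthase that adds a further acetyl unit to give HMG-CoA (ENSMUSG00000093930.2, chromosome 13, 119690379 to 119708260, plus strand), was at 17.1, 17.1 and 16.4 FPKM with ivermectin, 44.8, 45.2 and 44.7 FPKM with importazole and 23.3, 23.6 and 26.6 FPKM in vehicle. The 3 groups were fully separate, and the importazole libraries varied least, with a coefficient of variation of 0.573%. Ivermectin lowered it by a log2 difference of -0.51 (95% interval -0.66 to -0.36, limma adjusted p = 0.00134) and importazole raised it by 0.85 (0.704 to 0.998, limma adjusted p = 7.6e-05). In ivermectin against importazole the difference was -1.36 (-1.51 to -1.22, limma adjusted p = 8.11e-07). An antisense transcript shares 12.1% of its exon bases, and no source used here says whether strand was counted, so reads of both cannot be told apart. Within each library Hmgcs1 stood at a similar ratio to Acat2: 0.710 to 0.817 with ivermectin, 0.816 to 0.899 with importazole and 0.763 to 0.902 in vehicle.

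Of the 7 listed counterparts of these enzymes and genes of ketone-body metabolism, 5 were tested, and Acat3 was the one called against vehicle. Of all genes tested, 4.31% were called with ivermectin and 2.26% with importazole against vehicle. Acat1, the mitochondrial thiolase, was at 78.5, 72.9 and 72.1 FPKM with ivermectin, 62.6, 58.5 and 61.3 FPKM with importazole and 70.6, 68.2 and 69.4 FPKM in vehicle. Neither compound's difference from vehicle passed for Acat1 (log2 0.10 and -0.19, limma adjusted p = 0.362 and 0.137), while ivermectin was above importazole by 0.29 (limma adjusted p = 0.0225). Idi2, another isomerase gene, reached at most 0.0473 FPKM and was not tested. Bdh1 and Oxct1, which encode enzymes of ketone-body metabolism, did not pass in any of the 3 comparisons.

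The kinases Mvk and Pmvk add a phosphate each to mevalonate. Mvk, mevalonate kinase (ENSMUSG00000041939.14, chromosome 5, 114444269 to 114460591, plus strand), was at 15.8, 21.2 and 21.3 FPKM with ivermectin, 40.6, 40.7 and 37.96 FPKM with importazole and 26.1, 28.4 and 24.3 FPKM in vehicle. The ivermectin values lay below those of vehicle, and ivermectin 1 stood apart as the lowest. The log2 difference of -0.43 in ivermectin against vehicle did not pass (95% interval -0.66 to -0.19, limma adjusted p = 0.0509), and did pass after quantile normalization (limma adjusted p = 0.0318), median-of-ratios scaling (0.0275) or a filter at 5 FPKM (0.0395). With importazole Mvk rose by 0.58 (0.34 to 0.82, limma adjusted p = 0.0174). That call ended without a filter and without any one of vehicle 1, vehicle 3, importazole 1, importazole 2 or importazole 3 (limma adjusted p = 0.0502 to 0.0844). Ivermectin against importazole gave -1.01 (-1.25 to -0.77, limma adjusted p = 3.53e-04).

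Pmvk, phosphomevalonate kinase (ENSMUSG00000027952.16, chromosome 3, 89454541 to 89469013, plus strand), was at 23.6, 25.3 and 23.6 FPKM with ivermectin, 41.1, 41.3 and 36.4 FPKM with importazole and 27.5, 28.6 and 27.6 FPKM in vehicle. No library of one group overlapped another group, though the share of all genes tested that are as separate was not counted. Leaving Ggps1 aside, Pmvk had the smallest differences of the members in all 3 comparisons. In ivermectin against vehicle the log2 difference of -0.20 did not pass (95% interval -0.35 to -0.05, limma adjusted p = 0.128). Pmvk rose by 0.49 with importazole (0.34 to 0.64, limma adjusted p = 0.00346) and was lower in ivermectin against importazole, at -0.69 (-0.84 to -0.54, limma adjusted p = 2.19e-04). No 50-base word of either kinase transcript occurs in another annotated gene.

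Idi1 encodes the isomerase that turns isopentenyl diphosphate into dimethylallyl diphosphate, the other isoprene unit (ENSMUSG00000058258.14, chromosome 13, 8885501 to 8892451, plus strand). Levels were 9.47, 10.4 and 13.1 FPKM with ivermectin, 41.9, 45.0 and 45.2 FPKM with importazole and 18.02, 17.4 and 18.1 FPKM in vehicle. The groups were separate, although ivermectin 3 stood above the other ivermectin libraries. Idi1 fell by 0.66 on the log2 scale with ivermectin (95% interval -0.88 to -0.45, limma adjusted p = 0.0034) and rose by 1.26 with importazole (1.04 to 1.47, limma adjusted p = 7.6e-05). The direct difference was -1.92 (-2.14 to -1.70, limma adjusted p = 1.12e-06). Importazole libraries averaged 2.47 times, and ivermectin libraries 0.615 times, the vehicle mean in FPKM. Of its 50-base words 21.3% also occur in Gm13502, and an annotated transcript on the opposite strand shares 9.22% of its exon bases, so its level is uncertain to that extent.

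Fdps encodes farnesyl diphosphate synthase, which joins isoprene units up to the branch point (ENSMUSG00000059743.12, chromosome 3, 89093588 to 89101959, minus strand). It had 39.4, 42.7 and 45.9 FPKM with ivermectin, 183, 174 and 179 FPKM with importazole and 69.1, 69.3 and 66.2 FPKM in vehicle. Fdps was the most abundant member in every library, and its 3 groups were separate. With ivermectin the log2 difference was -0.67 (95% interval -0.81 to -0.53, limma adjusted p = 1.83e-04), and with importazole it was 1.38 (1.23 to 1.52, limma adjusted p = 2.12e-06). Ranked among all 11337 genes tested, its log2 difference was the 8th highest in importazole against vehicle and the 64th lowest in ivermectin against vehicle. Against importazole the ivermectin level was lower by a log2 difference of -2.04 (-2.19 to -1.90, limma adjusted p = 6.37e-08), and 1 was its rank by p among all genes. Only a small part of its coding transcript is unique, since 86.4% of its 50-base words also occur in other annotated genes, and 77.3% of all its words occur in Gm43738, which overlaps Fdps on the same strand. No source used here says how shared fragments were assigned. The level may therefore include fragments of such copies or lack fragments of Fdps, and it is uncertain to that extent.

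Ggps1 encodes geranylgeranyl diphosphate synthase, which extends farnesyl diphosphate by a further isoprene unit (ENSMUSG00000021302.10, chromosome 13, 14050659 to 14063488, minus strand). It was the least abundant member in every group, at 3.59, 4.59 and 5.26 FPKM with ivermectin, 3.96, 4.08 and 4.23 FPKM with importazole and 4.19, 4.69 and 3.96 FPKM in vehicle. The 3 groups overlapped, and the ivermectin libraries spanned those of both other groups. The log2 difference was 0.04 in ivermectin against vehicle (95% interval -0.21 to 0.29, limma adjusted p = 0.864), -0.05 in importazole against vehicle (-0.30 to 0.20, limma adjusted p = 0.875) and 0.09 in ivermectin against importazole (-0.16 to 0.35, limma adjusted p = 0.723). The sign of each turned when 1 or more libraries were left out. These intervals do not reach the differences measured for Fdps in the same comparisons. Arid4b on the opposite strand shares 5.44% of its exon bases.

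At the end of the pathway Fdft1, squalene synthase, commits farnesyl diphosphate to sterols (ENSMUSG00000021273.10, chromosome 14, 63145150 to 63179578, minus strand). Its level was 9.23, 9.95 and 9.73 FPKM with ivermectin, 29.0, 28.5 and 27.4 FPKM with importazole and 13.4, 12.7 and 14.1 FPKM in vehicle. Again no group overlapped another. Fdft1 fell by 0.44 on the log2 scale with ivermectin (95% interval -0.59 to -0.29, limma adjusted p = 0.00471), rose by 1.03 with importazole (0.88 to 1.18, limma adjusted p = 3.07e-05), and the direct difference was -1.46 (-1.61 to -1.31, limma adjusted p = 5.59e-07). Ctsb on the opposite strand shares 18.3% of its exon bases, and 10.85% of its 50-base words occur in Gm6781, so its level is uncertain to that extent.

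**Figure D3:**
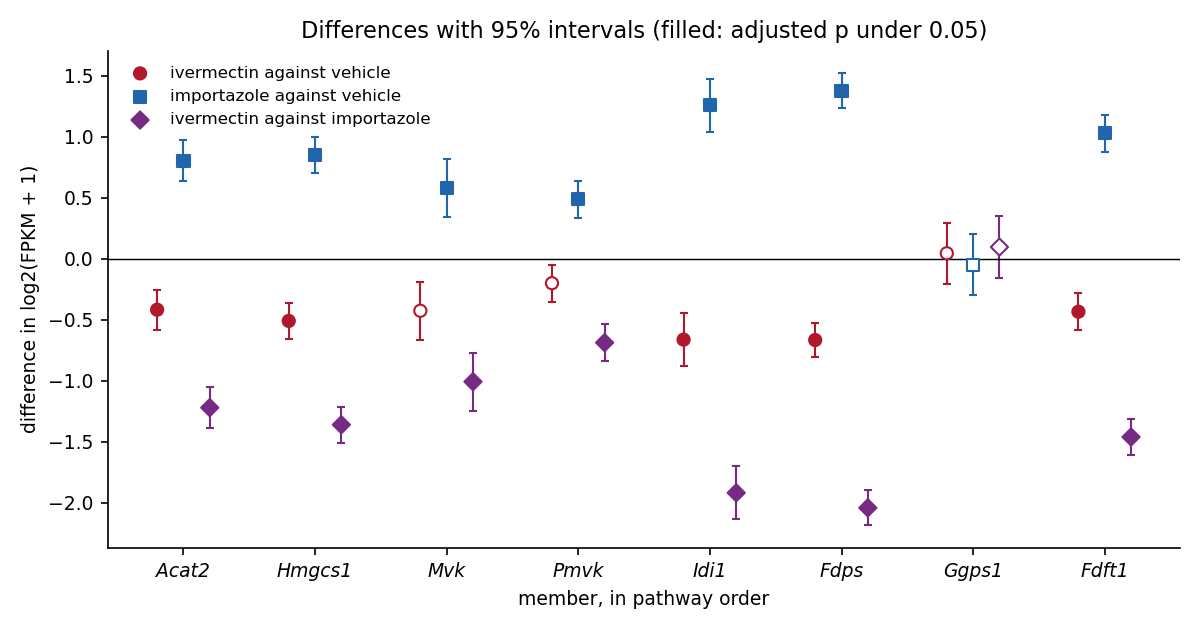
Difference in log2(FPKM + 1) with its 95% interval for each member in pathway order, in ivermectin against vehicle, importazole against vehicle and ivermectin against importazole; filled symbols have a limma adjusted p under 0.05. With importazole the differences run from 0.49 for Pmvk to 1.38 for Fdps, and those of Ggps1 lie near 0 in all 3 comparisons.

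Along the pathway, the differences were not even. With importazole, Idi1, Fdps and Fdft1 reached 2.47, 2.62 and 2.11 times the vehicle mean, against 1.77, 1.83, 1.51 and 1.42 times for Acat2, Hmgcs1, Mvk and Pmvk. In the ivermectin libraries the means were 0.615, 0.625 and 0.720 times those of vehicle for Idi1, Fdps and Fdft1, and 0.741, 0.688, 0.739 and 0.865 times for the 4 earlier members. For Ggps1 the ratio was 1.05 with ivermectin and 0.955 with importazole. The steps from the isomerase to squalene, Ggps1 left aside, thus held the 3 largest ratios to vehicle with importazole, while with ivermectin Hmgcs1 lay further below vehicle than Fdft1.

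The order of levels within a group also differed. From highest to lowest it was Fdps, Pmvk, Acat2, Mvk, Hmgcs1, Idi1, Fdft1 and Ggps1 with ivermectin, Fdps, Acat2, Hmgcs1, Idi1, Mvk, Pmvk, Fdft1 and Ggps1 with importazole, and Fdps, Acat2, Pmvk, Mvk, Hmgcs1, Idi1, Fdft1 and Ggps1 in vehicle. Some neighbours in these orders were not apart. The ranges over libraries overlapped for Pmvk and Acat2, Acat2 and Mvk, Mvk and Hmgcs1, and Idi1 and Fdft1 with ivermectin, for Hmgcs1 and Idi1 and for Mvk and Pmvk with importazole, and for Pmvk and Mvk and for Mvk and Hmgcs1 in vehicle. Pmvk was the second most abundant member with ivermectin and only above Fdft1 and Ggps1 with importazole.

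Ratios between members within a library do not depend on how libraries are scaled to each other. The Fdps to Ggps1 ratio was 11.0, 9.30 and 8.72 with ivermectin, 46.3, 42.6 and 42.3 with importazole and 16.5, 14.8 and 16.7 in vehicle. For Fdft1 to Ggps1 it was 2.57, 2.17 and 1.85 with ivermectin, 7.34, 6.98 and 6.47 with importazole and 3.21, 2.70 and 3.55 in vehicle. Both ratios were lowest with ivermectin and highest with importazole, with no overlap between groups. The Fdft1 to Fdps ratio ran the other way, at 0.212 to 0.234 with ivermectin, 0.153 to 0.164 with importazole and 0.182 to 0.212 in vehicle. The ivermectin and vehicle ranges overlapped, since ivermectin 3 (0.2121) lay just below vehicle 3 (0.2123). Fdps alone made up 27.5% to 29.5% of the members' summed FPKM with ivermectin, 40.1% to 42.2% with importazole and 31.5% to 32.6% in vehicle. The share of Ggps1 was 2.57% to 3.38% with ivermectin, 0.911% to 0.991% with importazole and 1.88% to 2.20% in vehicle.

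**Figure D4:**
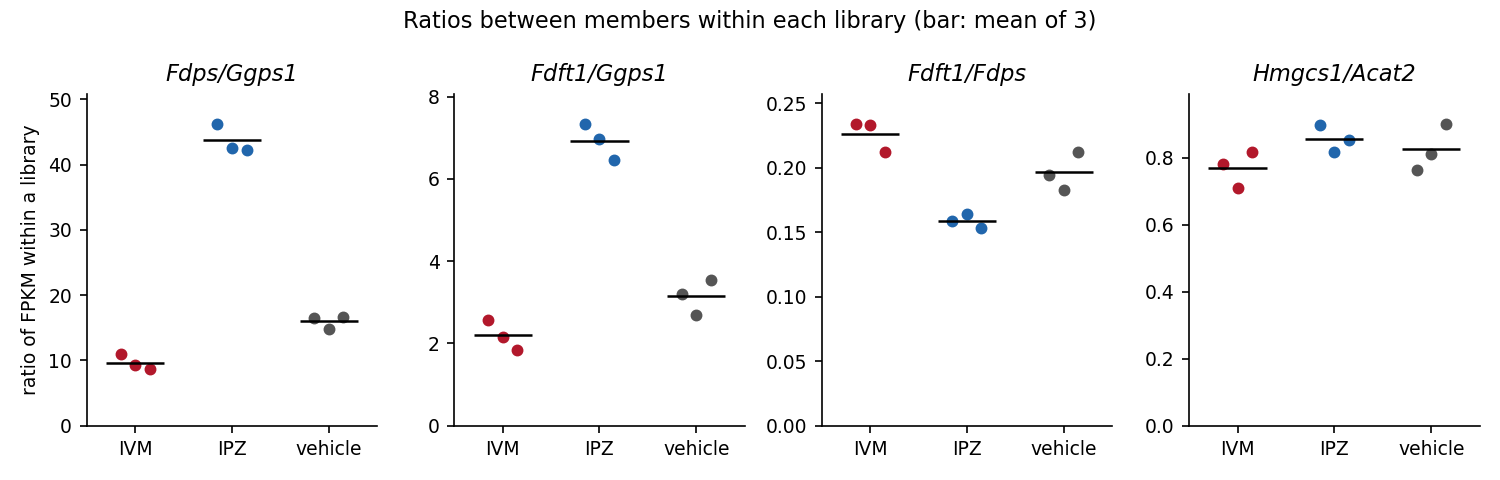
Ratio of FPKM between 2 members within each library (points; bars are means of 3) for ivermectin (IVM), importazole (IPZ) and vehicle. Fdps to Ggps1 is 42.3 to 46.3 with importazole and at most 16.7 in the other libraries, while Hmgcs1 to Acat2 lies between 0.710 and 0.902 in all 9.

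Around the pathway, 0 of the 3 genes that supply cytosolic acetyl-CoA passed limma's test in ivermectin against vehicle, beside 4.31% of all genes tested. With 3 genes that count does not set them apart (median log2 difference -0.19, with an unadjusted limma p under 0.05 for 2). In importazole against vehicle 2 of 3 rose (median 0.51), beside 1.69% of all genes called higher. Acly, which cleaves citrate to acetyl-CoA, was at 51.9, 50.8 and 47.8 FPKM with ivermectin, 94.97, 93.9 and 94.4 FPKM with importazole and 59.1, 60.2 and 53.2 FPKM in vehicle. Its log2 difference was 0.71 with importazole (limma adjusted p = 1.79e-04). Acss2, which makes acetyl-CoA from acetate, rose by 0.51 with importazole (limma adjusted p = 0.00217). In ivermectin against importazole all 3 were lower, including the citrate carrier gene Slc25a1 (log2 difference -0.51, limma adjusted p = 0.00535), beside 2.71% of all genes called lower.

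Past squalene, 7 of 12 genes of sterol synthesis fell with ivermectin and 5 did not pass (median log2 difference -0.31), beside 2.52% of all genes called lower. With importazole 9 of 12 rose and 3 did not pass (median 0.77), beside 1.69% of all genes called higher. Cyp51, the lanosterol demethylase, was at 34.9, 42.7 and 42.8 FPKM with ivermectin, 155, 145 and 165 FPKM with importazole and 63.0, 67.1 and 66.0 FPKM in vehicle. Nsdhl, a sterol dehydrogenase, rose by 1.12 with importazole (limma adjusted p = 3.07e-05) and had a log2 difference of -0.30 with ivermectin that did not pass (limma adjusted p = 0.0585).

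Of the 10 genes of SREBP control and sterol uptake, 3 fell and 7 did not pass with ivermectin (median log2 difference -0.22), beside 2.52% of all genes called lower. With importazole 4 of the 10 rose and 6 did not pass (median 0.09), beside 1.69% of all genes called higher. Srebf2, which encodes SREBP-2, was at 35.0, 37.1 and 31.8 FPKM with ivermectin, 59.7, 68.0 and 60.7 FPKM with importazole and 46.7, 46.7 and 43.3 FPKM in vehicle. It fell by 0.39 on the log2 scale with ivermectin (limma adjusted p = 0.0176) and rose by 0.45 with importazole (limma adjusted p = 0.0109). Insig1, a sterol-responsive retention factor of SREBP, had log2 differences of -0.40 with ivermectin (limma adjusted p = 0.00291) and 1.13 with importazole (limma adjusted p = 2.94e-06). Scap, the SREBP escort, had a log2 difference of -0.03 with ivermectin (95% interval -0.20 to 0.15) and 0.0049 with importazole (-0.17 to 0.18). Srebf1, which encodes SREBP-1, did not pass with either compound. Scap and Srebf1 were picked for mention after their values were seen.

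Of the 21 enzymes that use farnesyl, geranylgeranyl or longer isoprenoid diphosphates or process prenylated proteins, 0 passed limma's test in each of the 3 comparisons, near the 4.31%, 2.26% and 3.42% called among all genes in ivermectin against vehicle, importazole against vehicle and ivermectin against importazole, so the count does not set them apart from other genes. They had median log2 differences of 0.01 with ivermectin and 0.07 with importazole against vehicle. Without adjustment, limma's p was under 0.05 for 3 of the 21 in ivermectin against vehicle, 1 in importazole against vehicle and 2 in ivermectin against importazole, beside 20.7%, 15.8% and 19.0% of all genes tested. Rabggtb, a subunit of the transferase that prenylates Rab proteins, had log2 differences of 0.22 with ivermectin and 0.18 with importazole, and Icmt, which methylates prenylated proteins, had -0.20 with ivermectin; none of these passed. For the 13 genes of prenylated small GTPases and lamins, 0 passed as well, which is again near the share of all genes called. The unadjusted p was under 0.05 for 2, 1 and 4 of the 13 in the same order of comparisons, and the medians were -0.11 with ivermectin and 0.03 with importazole. Rhob, a small GTPase gene, was at 39.1, 42.2 and 44.7 FPKM with ivermectin, 47.8, 57.8 and 52.5 FPKM with importazole and 52.3, 47.2 and 48.6 FPKM in vehicle. Its difference of -0.32 in ivermectin against importazole did not pass (limma adjusted p = 0.0606).

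**Figure D5:**
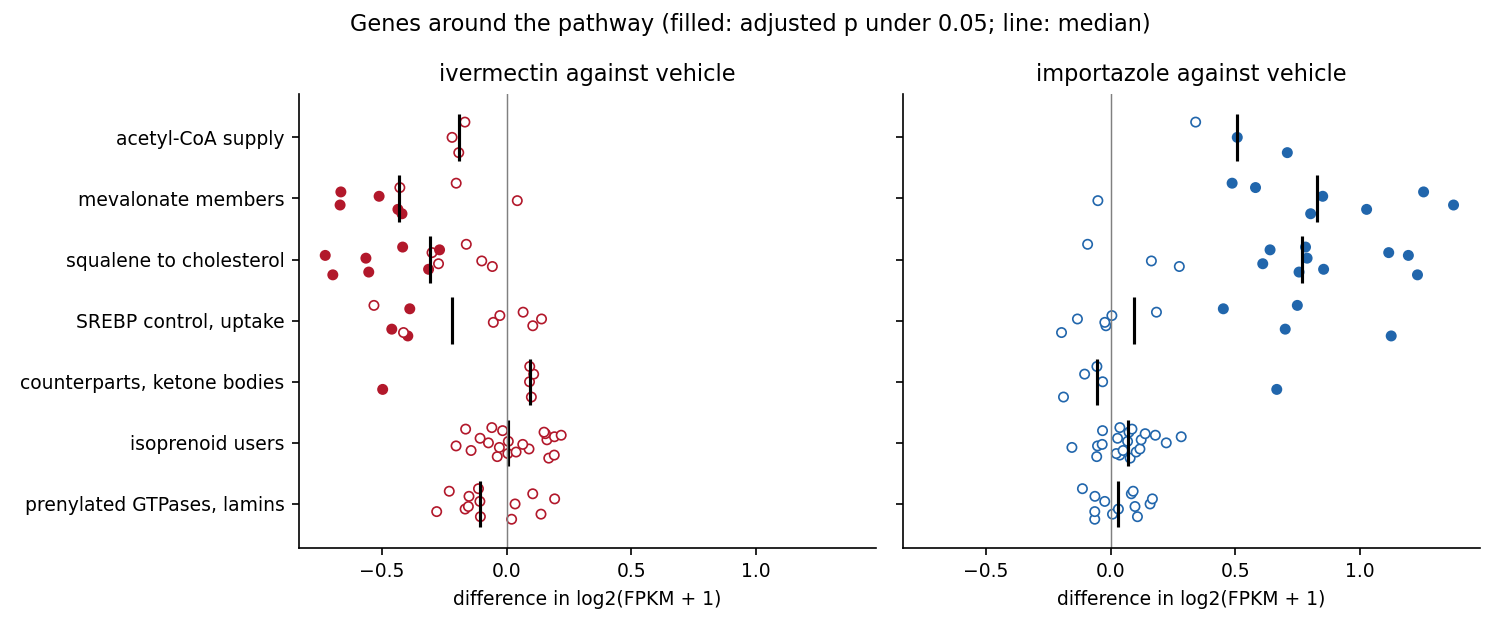
Difference in log2(FPKM + 1) from vehicle of each tested gene in 7 groups of genes (points, filled where the limma adjusted p is under 0.05; lines are medians), for ivermectin (left) and importazole (right). The medians of the members and of the genes from squalene to cholesterol are -0.43 and -0.31 with ivermectin and 0.83 and 0.77 with importazole. Among the isoprenoid users 0 genes are filled, near the 4.31% with ivermectin and 2.26% with importazole called among all genes tested. That count does not set them apart.

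Genes whose pattern lay nearest to the members were sought among 7717 other genes with a mean of at least 5 FPKM. Predicted genes, Gm and Rik loci, small RNAs, clone-named symbols and every symbol starting with Rn had been left out. Likeness was the root mean square difference, over the 9 libraries, between a gene's log2(FPKM + 1) minus its vehicle mean and the same quantity averaged over the 8 members. The nearest was Sqle, squalene epoxidase, at 0.0617 log2 units, with 43.0, 44.3 and 45.5 FPKM with ivermectin, 101, 101 and 106 FPKM with importazole and 63.2, 55.5 and 59.8 FPKM in vehicle. Next was Aacs, acetoacetyl-CoA synthetase, at 0.0690, which averaged 16.6 FPKM with ivermectin, 36.9 FPKM with importazole and 21.4 FPKM in vehicle. Among the 8 nearest were also Dhcr7 (0.0846), Acat3 (0.129) and Sc5d (0.133). For comparison, the members' own distances from their average ran from 0.0839 for Acat2 to 0.558 for Ggps1.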

How the data were processed

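Per the labels' protocols, mRNA was captured from total RNA and Ion Total RNA-Seq libraries were sequenced on the Ion Proton. The authors deposited FPKM values per gene for each library. Cufflinks, STAR, Bowtie and Bowtie2, and the builds mm10 and GRCm38, are named per the submitters' processing notes, and no source used here gives their roles, versions, the annotation or the use of strand. FPKM keeps no counts, so depth is unknown.

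Of 25230 lines per library, 48 symbols listed more than once were summed, giving 25175. Differences in log2(FPKM + 1) were tested with limma 3.58.1 in R 4.3.3 over all 9 libraries, without a block, for 11337 genes at 1 FPKM or more in at least 3 libraries, with Benjamini-Hochberg adjustment and a threshold of 0.05. The procedure was tested on simulated data. Figures used Python 3.11.15 and matplotlib 3.10.9. Gene positions and 50-base words came from GENCODE M21 (GRCm38), and promoters from RefSeq (GRCm38.p6).

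The members and lists were chosen with earlier results of these data known. All members are named, with up to 4 genes of smallest p per list, paralogs of members, and the 8 genes of nearest pattern, of which 3 are not reported here. Other pseudocounts, filters, scalings, sample sets and a replicate block were tried.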

Additional observations from a re-analysis of the deposited data

How the results depend on the processing

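Acat2, Hmgcs1, Idi1, Fdps and Fdft1 with ivermectin, Acat2, Hmgcs1, Pmvk, Idi1, Fdps and Fdft1 with importazole, and these 6 with Mvk in the direct comparison kept their direction and call under each alternative run, 18 per gene, except Acat2 with ivermectin, whose limma adjusted p was 0.0727 without both libraries listing Yam1 at 0; for the calls of Mvk see the values given with it. Members called numbered 4 to 6 in ivermectin against vehicle, 6 to 7 in importazole against vehicle and 7 in ivermectin against importazole.

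The sign of Ggps1 turned in importazole against vehicle (log2 0.0038 without vehicle 2, and 0.0038 without the Yam1 libraries), in ivermectin against importazole (-0.0074 without ivermectin 3, and -0.0074 without the Yam1 libraries) and in ivermectin against vehicle (-6.85e-04 without vehicle 3, -0.059 without ivermectin 3 and -0.0036 without the Yam1 libraries). Leaving out 1 library, these differences ran from -0.095 to 0.0038, from -0.0074 to 0.22 and from -0.059 to 0.17 in the same order. A filter at 5 FPKM removes Ggps1.

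Over all genes, calls in ivermectin against vehicle, importazole against vehicle and ivermectin against importazole were 211, 133 and 177 with no filter, where more genes were tested, and 190, 161 and 231 without the Yam1 libraries, with fewer libraries. Fitting only the 6 libraries compared gave 274 in ivermectin against vehicle. Leaving out 1 library gave 243 to 398, 127 to 319 and 176 to 396. With the replicate number as a block, calls were 354, 175 and 257. Nothing in the labels says that equal numbers mark a shared culture or day, so the numbers were not taken to pair the libraries. Deviations of libraries with the same number correlated at -0.210 to 0.145. Those with different numbers correlated at -0.219 to 0.307. The highest was for ivermectin 3 and vehicle 2, the libraries listing Yam1 at 0. The cause of the shifts in calls and of these correlations was not tested. Depth is unknown, and 3 libraries a group limit the precision.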
